A study of Mus musculus with 18 samples.

Results

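The transcription factor Nrf2, encoded by Nfe2l2, and 9 genes known as its targets or as markers of oxidative stress (Nqo1, Hmox1, Gclc, Gclm, Srxn1, Txnrd1, Gpx2, Slc7a11 and Sod2) were followed by RNA-seq through 6 cell populations sorted from mouse ear skin. They were picked by symbol, with earlier results of these data known, and make up 10 of the 23951 genes with an FPKM value (fragments per kilobase of transcript, scaled to the mapped reads of a library). All 10 were among the 12751 genes kept for testing, a minimum of 1 FPKM being required of 3 or more of the 18 libraries. Slc7a11 reached this minimum in its 12 DKO* libraries and in 0 Co libraries, so that its selection for testing drew on the groups where it was high. The other 9 reached it in 4 or more Co libraries.

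The populations were bulge hair follicle stem cells (HF-SCs, CD45- CD49f-high CD34+) and basal keratinocytes (b-KCs, CD45- CD49f-high CD34-), each with 3 libraries from 3 mice per group. DKO* mice were f/f for JunB as well as for c-Jun and carried K5-Cre-ERT, in which the keratin 5 promoter drives a tamoxifen-inducible Cre in basal epidermal cells, and develop a psoriasis-like disease. Control mice (Co) carried the same Cre but were +/+ or +/f for JunB and c-Jun, so Co cells may hold 1 deleted allele of each gene. Both genotypes carried the mT/mG reporter, which turns Tomato into GFP in recombined cells, were 8 weeks old and of both sexes, and received 4 daily injections of 2 mg tamoxifen before collection at day 7. DKO* mice 814, 815 and 817 each gave 4 libraries, a mutant GFP and a non-mutant Tom fraction of both cell types. Co mice 810, 825 and 828 each gave an HF-SC and a b-KC library, and the sample labels give no GFP gate for them. The GFP and Tom fractions of a cell type are therefore compared with the same Co libraries and come from the same mice.

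Nrf2 is a basic leucine zipper protein that the adaptor Keap1 holds in the cytoplasm and passes to the ubiquitin ligase of Cul3 for degradation. Oxidants and electrophiles modify Keap1, after which Nrf2 accumulates, pairs with a small Maf protein and binds antioxidant response elements, while Bach1 competes for the same elements. Its targets make glutathione, reduce thioredoxin and peroxiredoxins, detoxify quinones and degrade heme, and in skin the pathway is known for protecting keratinocytes from oxidants. Because Nrf2 is controlled mainly through the stability of its protein, its mRNA is not a measure of its activity. The antioxidant response element resembles the AP-1 site, the element bound by Jun proteins, and Slc7a11 is also known as a target of Atf4, the factor of the amino acid response.

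The stretches before the transcription start of members are shown because such stretches can hold the elements that these factors bind. RefSeq windows of 250 bases before to 50 bases after the start (GRCm38.p6) were found for 8 members, and Hmox1 and Gclc were not matched. Both strands were searched for the core of the antioxidant response element (TGACNNNGC), the AP-1 site (TGACTCA) and the core of the amino acid response element (TGATGNAA). An AP-1 site followed by GC also holds the first motif, so that matches to these 2 motifs can overlap. The 250 bases upstream of the start of each gene with a match are printed here from 5′ to 3′ on the gene's strand, with matches to any of the 3 motifs in capitals. On NCBIM37, the build of the deposited values, they lie at chr2:75542721-75542970 (Nfe2l2, minus strand), chr2:151931010-151931259 (Srxn1, plus strand), chr3:50247536-50247785 (Slc7a11, minus strand), chr3:121948225-121948474 (Gclm, plus strand) and chr10:82321701-82321950 (the second of 3 annotated starts of Txnrd1, plus strand).
Nfe2l2: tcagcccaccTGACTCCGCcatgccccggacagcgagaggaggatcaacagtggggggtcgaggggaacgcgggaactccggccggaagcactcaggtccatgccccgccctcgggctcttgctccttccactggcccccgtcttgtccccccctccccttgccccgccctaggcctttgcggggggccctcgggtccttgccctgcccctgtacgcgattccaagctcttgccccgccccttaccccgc
Srxn1: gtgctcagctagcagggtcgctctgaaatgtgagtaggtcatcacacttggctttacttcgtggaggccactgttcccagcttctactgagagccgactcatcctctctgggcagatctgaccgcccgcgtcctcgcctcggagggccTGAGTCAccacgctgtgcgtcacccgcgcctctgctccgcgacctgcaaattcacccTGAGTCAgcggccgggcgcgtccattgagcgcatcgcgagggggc
Slc7a11: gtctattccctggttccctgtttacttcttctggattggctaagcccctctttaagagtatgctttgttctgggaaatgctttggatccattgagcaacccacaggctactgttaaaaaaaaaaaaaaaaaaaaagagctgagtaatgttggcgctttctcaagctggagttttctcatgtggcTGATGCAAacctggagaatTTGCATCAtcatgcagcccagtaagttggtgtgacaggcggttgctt
Gclm: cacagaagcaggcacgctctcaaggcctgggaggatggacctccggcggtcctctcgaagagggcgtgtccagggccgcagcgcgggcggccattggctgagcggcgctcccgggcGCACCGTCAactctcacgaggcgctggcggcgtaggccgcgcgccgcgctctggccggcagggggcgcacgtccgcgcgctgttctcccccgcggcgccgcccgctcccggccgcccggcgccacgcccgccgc
Txnrd1: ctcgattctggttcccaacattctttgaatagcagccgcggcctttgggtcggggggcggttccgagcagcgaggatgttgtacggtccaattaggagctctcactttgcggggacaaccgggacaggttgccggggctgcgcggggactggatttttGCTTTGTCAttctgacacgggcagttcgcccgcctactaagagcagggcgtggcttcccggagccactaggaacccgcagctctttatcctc
The antioxidant response element core was present in 4 of the 8 members with a window, at -240 to -232 in Nfe2l2, -134 to -126 in Gclm, -92 to -84 at the second start of Txnrd1 and 29 to 37 bases after the start of Srxn1. By gene, it was found in 14% of all 27025 genes with a window, and by window in 12.4% of 32851. The AP-1 site was found in Srxn1 alone, at -102 to -96 and at -45 to -39, and in 5.95% of all genes (5.2% of windows). The amino acid response element core was found in Slc7a11 alone, at -66 to -59 and, in the opposite direction, at -47 to -40, and in 4.51% of all genes (3.97% of windows). These letters were not in the windows of Nqo1, Gpx2 and Sod2. A match is a description of the sequence, and no binding was measured.

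**Figure D1:**
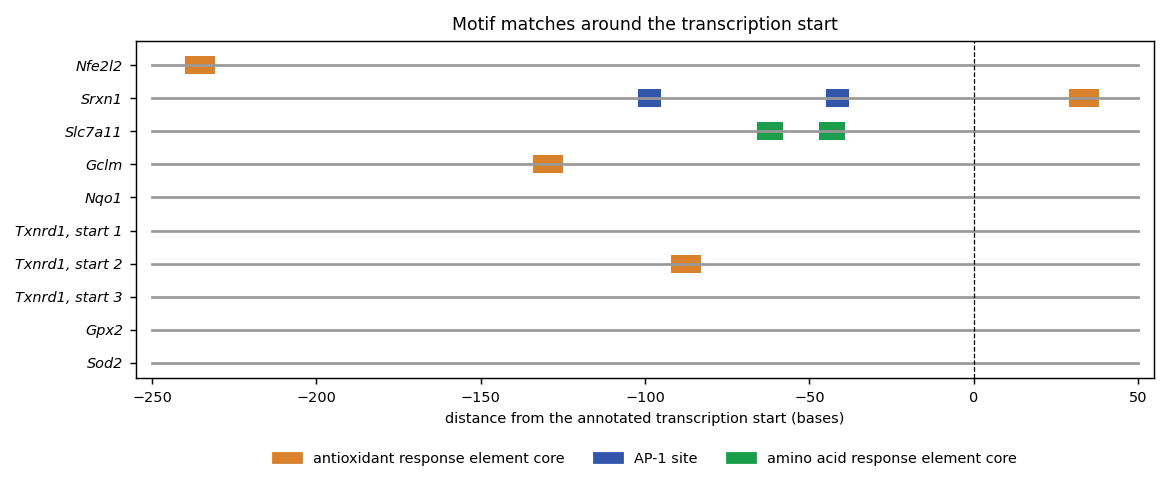
Motif matches in the windows of 8 members, with the distance from the annotated transcription start in bases on the horizontal axis. Each grey line is 1 window and each coloured box 1 match on either strand. Slc7a11 holds 2 amino acid response element cores and Srxn1 holds 2 AP-1 sites and 1 antioxidant response element core.

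Transcripts of the sorting markers were checked first. Cd34 had 640 to 889 FPKM in HF-SC Co, 161 to 228 in HF-SC GFP and 260 to 319 in HF-SC Tom, and a mean of 1.45 FPKM in b-KC Co. The 6 bulge markers (Cd34, Krt15, Lhx2, Sox9, Lgr5 and Nfatc1) summed to a median of 12610 FPKM in HF-SC Co, where the library with Krt15 listed at 0 had 1080, against 4412 in HF-SC GFP and 3789 in HF-SC Tom, and to medians of 3108, 545 and 225 in Co, GFP and Tom b-KCs. The 4 suprabasal markers found summed to 306 to 429 FPKM in HF-SC Co and 531 to 1475 in DKO* HF-SCs, and to 3576 to 4537 in b-KC Co and 1321 to 3267 in DKO* b-KCs. The 6 keratinocyte markers had median sums of 7542, 7698 and 10040 FPKM in Co, GFP and Tom HF-SCs and of 16170, 9962 and 8260 in Co, GFP and Tom b-KCs. The b-KC sums ran from 16070 to 17360 in Co, 6305 to 10370 in GFP and 5780 to 16070 in Tom. Krt14, 1 of the 6 markers, was listed at 0 in some of these DKO* libraries. Krt5 was at least 2299 FPKM in each library, and Ptprc, which encodes CD45, was under 1 FPKM in each library. The 6 leukocyte markers, Ptprc among them, summed to 1.86 to 2.45 FPKM in HF-SC Co, 4.46 to 21.7 in HF-SC GFP and 10.03 to 14.55 in HF-SC Tom, and to 0.603 to 1.05 in b-KC Co, 3.53 to 4.37 in b-KC GFP and 1.39 to 3.94 in b-KC Tom. The 5 neutrophil markers found summed to 1.36 to 2.01 FPKM over the Co libraries and 6.52 to 10.99 over the DKO* libraries, mostly through Cxcr2, with Retnlg at 0 throughout both Co groups and Csf3r at or below 0.367 in each library. The 6 macrophage markers summed to 5.04 to 7.83 FPKM in HF-SC Co and 5.55 to 27.6 in DKO* HF-SCs, and to 0.989 to 1.44 in b-KC Co and 3.52 to 5.91 in DKO* b-KCs. In GFP cells the mean FPKM of Jun was 62.8 in HF-SCs and 49.6 in b-KCs, against 983 and 952 in Co. In Tom cells it was 418 and 264. The 8 endothelial markers (Pecam1, Cdh5, Plvap, Kdr, Emcn, Tie1, Esam and Cldn5) summed to 393 to 1234 FPKM in HF-SC Tom, 44.4 to 73.4 in HF-SC Co, 1.06 to 25.2 in HF-SC GFP and 0.416 to 6.84 over the b-KC libraries, with none at 0 throughout a group. The 5 Langerhans and dendritic markers summed to 143 to 1353 FPKM over the DKO* libraries and 5.79 to 13.1 over the Co libraries, through Cd74, H2-Ab1 and H2-Aa, whereas Cd207 of Langerhans cells stayed at or below 1.07 FPKM in each library. 1 HF-SC Co library listed Krt15 at 0, and some DKO* b-KC libraries listed Krt14 at 0. The 4 T cell markers found summed to 0.621 to 1.38 FPKM in HF-SC Co, 1.32 to 4.53 in DKO* HF-SCs, 11.63 to 16.3 in b-KC Co and 8.87 to 41.96 in DKO* b-KCs. The 4 melanocyte markers summed to 2.63 to 4.495 FPKM in HF-SC Co, 5.23 to 15.8 in HF-SC GFP, 2.06 to 8.49 in HF-SC Tom and 1.11 to 4.41 over the b-KC libraries. The 6 fibroblast markers summed to 13.9 to 120.5 FPKM in DKO* HF-SCs against 45.9 to 95.5 in HF-SC Co, and to 3.62 to 5.85 in GFP and 1.67 to 3.804 in Tom b-KCs against 4.28 to 6.16 in b-KC Co. The 3 erythroid markers summed to 1.05 to 36.6 FPKM over the 18 libraries, and the DKO* groups overlapped Co. The part of other cell types in the values below was not tested. In bulk samples, fewer cells that hold a transcript and less of it per cell cannot be told apart.

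Most members were higher in DKO* cells, both mutant and non-mutant, than in Co. A gene passed at an adjusted p under 0.01 (limma on log2(FPKM + 1), Benjamini-Hochberg adjustment over the 12751 genes), and p-values rest on 3 mice per group. In HF-SC GFP, 8 of 10 members were higher and 0 lower, where 13% of all genes tested were higher and 12.3% lower. In HF-SC Tom, 6 were higher and 1 lower, against 15.7% and 13.9% of all genes. In b-KC GFP, 7 were higher and 0 lower, against 12.5% and 12%, and in b-KC Tom 7 were higher and 1 lower, against 15.4% and 15.3%. The median log2 fold change of the members was 1.68, 1.21, 1.13 and 0.89 in these 4 populations in turn, where the median of all genes lay between -0.05 and -0.02. Over the 9 genes without Slc7a11, 7 and 5 were higher for GFP and Tom HF-SCs and 6 and 6 for GFP and Tom b-KCs, and the medians were 1.55, 1.17, 0.87 and 0.88.

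Nfe2l2, Nqo1, Txnrd1, Gpx2 and Sod2, and also Slc7a11 with the limit just given, passed as higher in each of the 4 populations, as 641 of the 12751 genes did (5.03%). These 4 calls share their Co libraries and DKO* mice. With a minimum log2 change of 2 added, HF-SCs kept 3 members for GFP (3.07% of all genes) and 2 for Tom (4.09%), and b-KCs kept 3 for GFP (1.87%) and 1 for Tom (2.75%). Slc7a11, with the same limit, was in each of these counts and was the only member kept in b-KC Tom. The others were Txnrd1 and Gpx2 in HF-SC GFP, Txnrd1 in HF-SC Tom, and Nqo1 and Gpx2 in b-KC GFP. The calls of Nqo1 and Txnrd1 held in each of the 4 populations whichever mouse was left out. Without mouse 815 the count fell to 4 in HF-SC Tom and to 4 in b-KC Tom (17% and 14.7% of all genes passed in these fits), without mouse 828 it was 5 in b-KC Tom (17.3%), and in the other leave-outs it was within 1.5 times of the full count.

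**Figure D2:**
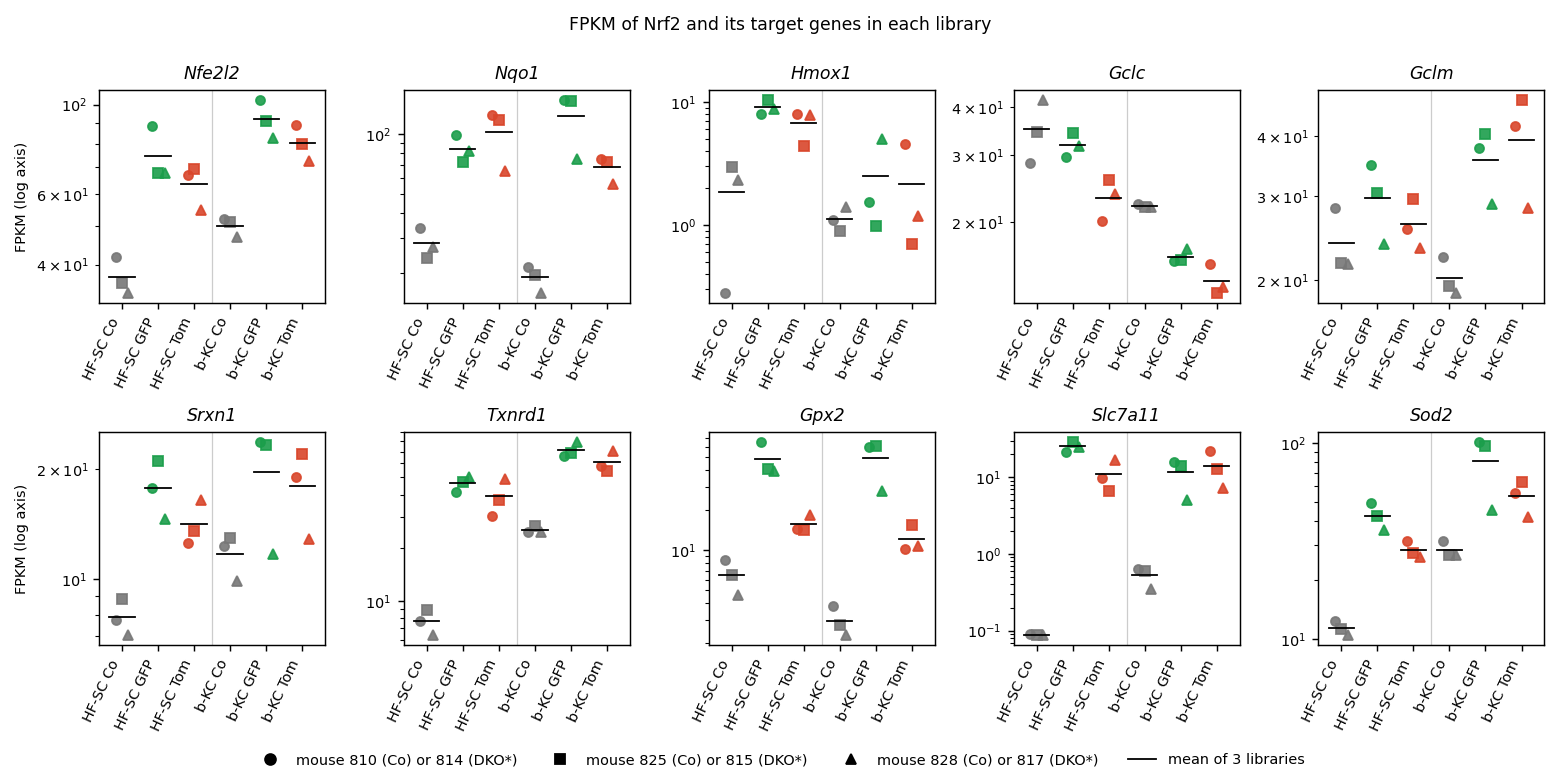
FPKM of the 10 genes in each of the 18 libraries, on a log axis that differs between panels, with 1 point per library, a marker shape per mouse within a genotype and a bar at the mean of 3 libraries. For Nqo1, Txnrd1, Gpx2 and Slc7a11 each DKO* library lies above each Co library of its cell type, and Slc7a11 has the widest span, from 0.0870 to 29.0 FPKM.

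Nfe2l2 itself (chromosome 2, 75513570 to 75542698, NCBIM37, minus strand) was well expressed in each population. Its levels were 41.8, 36.0 and 33.9 FPKM (Co), 88.2, 67.7 and 67.5 (GFP) and 66.7, 69.1 and 54.7 (Tom) among HF-SC libraries. b-KC values were 51.9, 51.1 and 46.7 FPKM (Co), 103, 91.2 and 82.6 (GFP) and 88.9, 79.8 and 72.3 (Tom). Here and below, Co values are in the order of mice 810, 825 and 828 and GFP and Tom values in the order of mice 814, 815 and 817. Each DKO* library lay above each Co library of its cell type, while GFP and Tom libraries overlapped. Within the same mouse, GFP was above Tom in each b-KC pair and in the HF-SCs of mice 814 and 817, but not of mouse 815. The log2 fold change from Co was 0.97 and 0.75 for GFP and Tom HF-SCs and 0.87 and 0.67 for GFP and Tom b-KCs, each ± 0.14 (SE, adjusted p = 6.06e-05, 0.00046, 0.000277 and 0.00123). The mean FPKM was 2.0 and 1.71 times that of Co for GFP and Tom HF-SCs and 1.85 and 1.61 times for GFP and Tom b-KCs. The HF-SC Tom call was lost without mouse 815 (adjusted p = 0.0126), and the b-KC Tom call without mouse 815 (0.0149) or 828 (0.0108).

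In order of their means, the groups ran from HF-SC Co over b-KC Co, HF-SC Tom, HF-SC GFP and b-KC Tom to b-KC GFP for Nfe2l2. HF-SC Co did not overlap b-KC Co, and b-KC Co did not overlap HF-SC Tom, whereas each later neighbour in this order overlapped the next.

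Among the genes that act on Nrf2 or share its partners, 10 were tested and none was higher in any of the 4 populations. Of all genes, 13% and 15.7% were higher in GFP and Tom HF-SCs and 12.5% and 15.4% in GFP and Tom b-KCs. Finding none among 10 is near these shares. In HF-SCs, 2 of them were lower in GFP cells and 2 in Tom cells, where 12.3% and 13.9% of all genes were lower, and in b-KCs 3 and 5, against 12% and 15.3%. Maff, a small Maf partner of Nrf2, was lower in each population, with 21.8, 14.5 and 20.5 FPKM in HF-SC Co against 7.64, 8.48 and 8.13 in HF-SC GFP, and with log2 fold changes of -1.11, -1.12, -0.95 and -1.49 (GFP and Tom of HF-SCs, then of b-KCs, adjusted p = 3.56e-05, 2.52e-05, 0.000257 and 3.3e-06). Mafk, another small Maf, had a log2 fold change of -1.24 for GFP and -1.86 for Tom b-KCs (adjusted p = 0.00291 and 9.77e-05). Bach2, a relative of the repressor Bach1, had group means of 1.54 FPKM in HF-SC Co and 0.792 in b-KC Co, and was lower in each population, with log2 fold changes of -0.58, -0.68, -0.52 and -0.70 (adjusted p = 0.000326, 7.01e-05, 0.00106 and 7.03e-05). It reached the filter on low values through its HF-SC Co libraries alone, so that its HF-SC comparisons draw on the filter, and the b-KC GFP call was lost without mouse 814 (adjusted p = 0.0172) or 815 (0.0141), and that in HF-SC GFP in a fit of the compared groups alone (0.0113). Keap1 did not pass in any population, with log2 fold changes of -0.28, -0.21, -0.03 and 0.01 in the same order, of which the last was -0.07 without mouse 817. Bach1 was low, with group means of 2.53 to 3.39 FPKM, and did not pass (adjusted p from 0.291 to 0.709).

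Nqo1, a quinone reductase widely used as a readout of Nrf2, showed a clear gap to Co. It had 33.7, 23.6 and 27.1 FPKM (Co), 98.8, 72.1 and 82.0 (GFP) and 125, 118 and 65.4 (Tom) among HF-SC libraries. The b-KC values were 21.5, 19.5 and 15.7 FPKM (Co), 149, 147 and 75.1 (GFP) and 75.1, 72.7 and 56.3 (Tom). The lowest DKO* library of each cell type was above the highest Co library. Log2 fold changes from Co were 1.55 and 1.79 for GFP and Tom HF-SCs and 2.59 and 1.79 for GFP and Tom b-KCs, each ± 0.27 (SE, adjusted p = 0.000351, 7.9e-05, 7.62e-06 and 0.000101). In the order of group means from b-KC Co over HF-SC Co, b-KC Tom, HF-SC GFP and HF-SC Tom to b-KC GFP, the first 2 groups did not overlap their next neighbour and the others did.

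Hmox1, the heme oxygenase induced by heme and oxidants, was the lowest of the members after Slc7a11 in Co cells. Its levels were 0.278, 2.99 and 2.34 FPKM (Co), 8.02, 10.5 and 8.86 (GFP) and 8.06, 4.37 and 7.85 (Tom) among HF-SC libraries. For b-KCs the values were 1.09, 0.897 and 1.40 FPKM (Co), 1.54, 0.982 and 4.98 (GFP) and 4.58, 0.708 and 1.19 (Tom). The HF-SC fractions of DKO* mice lay above HF-SC Co, whereas in b-KCs the groups overlapped, with 1 high library from mouse 817 among the GFP and 1 from mouse 814 among the Tom libraries. The log2 fold change was 1.97 ± 0.47 in HF-SC GFP (adjusted p = 0.0041) and 1.55 ± 0.47 in HF-SC Tom, which did not pass (adjusted p = 0.0152). In b-KCs it was 0.55 in GFP and 0.38 in Tom (adjusted p = 0.364 and 0.542). The HF-SC GFP call leaned on the low Co library of mouse 810, without which it was 1.46 (adjusted p = 0.034), and it was also lost without mouse 815 (0.0185) or 828 (0.0117). By mean, Hmox1 was lowest in b-KC Co, followed by HF-SC Co, Tom and GFP b-KCs and then Tom and GFP HF-SCs, with overlap at every step.

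The enzymes and the transporter of glutathione synthesis did not move together. Slc7a11, the subunit of the xCT exchanger that imports cystine for glutathione, went from near absence to a moderate level, while Gclc, the catalytic subunit of glutamate cysteine ligase, was not higher in any population and Gclm, its modifier subunit, was higher in b-KCs.

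Slc7a11 (chromosome 3, 50168858 to 50247535, minus strand) had 0.0898, 0.0870 and 0.0889 FPKM in HF-SC Co, which on its transcript of 9227 bases correspond to 15.0 to 19.9 implied reads per library. GFP HF-SCs showed 21.4, 29.0 and 25.0 FPKM, and Tom HF-SCs 9.85, 6.59 and 16.8. For b-KCs the levels were 0.635, 0.608 and 0.350 FPKM (Co), 15.7, 14.1 and 5.08 (GFP) and 22.1, 12.7 and 7.28 (Tom). Co and DKO* libraries were thus far apart in both cell types. The ratio of mean FPKM to Co was 284 and 125 for GFP and Tom HF-SCs, and 21.9 and 26.4 for GFP and Tom b-KCs. On the log2(FPKM + 1) scale, which understates the change of a gene this low in Co, the fold changes were 4.58 ± 0.39, 3.38 ± 0.39, 2.92 ± 0.39 and 3.18 ± 0.39 in the same order. Since no Co library reached the filter on low values, the p-values are given from the fit without that filter (adjusted p = 2.52e-06, 2.56e-05, 0.000217 and 6.49e-05). With 0.1 in place of 1 FPKM added they were 7.05, 5.78, 4.09 and 4.38. From HF-SC Co over b-KC Co to HF-SC Tom the groups were separate, and the 4 DKO* groups overlapped their neighbours, with HF-SC GFP the highest.

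Gclc had 28.6, 34.5 and 41.8 FPKM (Co), 29.7, 34.2 and 31.6 (GFP) and 20.1, 25.8 and 23.7 (Tom) among HF-SC libraries. Its b-KC libraries held 22.3, 21.9 and 21.9 FPKM (Co), 15.8, 15.9 and 17.0 (GFP) and 15.5, 13.0 and 13.5 (Tom). It was the member that did not rise in any population. It was lower in both Tom fractions, by a log2 fold change of -0.56 ± 0.13 in HF-SCs and -0.62 ± 0.13 in b-KCs (adjusted p = 0.00268 and 0.00139), and did not pass in b-KC GFP (-0.42, adjusted p = 0.0186) or HF-SC GFP (-0.12, adjusted p = 0.505). Without mouse 814, 815, 825 or 828 the HF-SC Tom call was lost (adjusted p from 0.011 to 0.0291), and the b-KC Tom call was lost without mouse 815 (adjusted p = 0.0203). In order of means, the groups ran upward with b-KC Tom, b-KC GFP and b-KC Co separate from each other at the bottom, b-KC Co overlapping HF-SC Tom, and HF-SC Co at the top, overlapping HF-SC GFP, which was separate from HF-SC Tom.

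Gclm had 28.3, 21.8 and 21.6 FPKM (Co), 34.7, 30.4 and 23.8 (GFP) and 25.6, 29.5 and 23.3 (Tom) among HF-SC libraries, with overlap of each DKO* fraction with Co. The b-KC values were 22.4, 19.5 and 18.7 FPKM (Co), 37.8, 40.3 and 28.8 (GFP) and 42.0, 47.6 and 28.4 (Tom), with both fractions above Co. Its log2 fold change was 0.78 ± 0.19 for GFP and 0.90 ± 0.19 for Tom b-KCs (adjusted p = 0.00527 and 0.0016), against 0.29 and 0.13 in the HF-SC fractions, which did not pass (adjusted p = 0.246 and 0.615). Both b-KC calls were lost without mouse 814, 815, 825 or 828 (adjusted p up to 0.0453 in GFP and 0.024 in Tom). An exon of Gclm overlaps Gm17494 on the opposite strand, and since the libraries are not directional, reads of the pair cannot be told apart. Its group means ran upward from b-KC Co through HF-SC Co, Tom and GFP HF-SCs to the GFP and Tom b-KCs, and every neighbouring pair overlapped.

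Of all 12751 genes, 13% were higher and 12.3% lower for GFP HF-SCs, 15.7% and 13.9% for Tom HF-SCs, 12.5% and 12% for GFP b-KCs and 15.4% and 15.3% for Tom b-KCs. In the wider glutathione list of 15 tested genes, HF-SCs showed 5 higher and 1 lower for GFP and 5 and 1 for Tom, and b-KCs 5 and 1 for GFP and 7 and 2 for Tom. Gsta4, a glutathione transferase for the lipid peroxidation product hydroxynonenal, went from 2.39, 1.01 and 1.03 FPKM in HF-SC Co to 76.3, 51.8 and 30.2 in GFP and 206, 147 and 161 in Tom. For b-KCs the levels were 28.8, 11.2 and 11.4 FPKM (Co), 61.9, 60.0 and 37.6 (GFP) and 312, 416 and 310 (Tom). Its libraries were separate between Co, GFP and Tom in both cell types, with Tom on top. The log2 fold change from Co was 4.39, 6.15, 1.68 and 4.38 (GFP and Tom of HF-SCs, then of b-KCs, adjusted p = 3.11e-07, 1.1e-08, 0.00209 and 5.25e-07). Glrx, the cytosolic glutaredoxin, was higher in each population, by a log2 fold change of 3.27, 2.76, 2.04 and 2.20 in the same order (adjusted p = 5.45e-05, 0.00019, 0.003 and 0.00135). Mgst2, a microsomal glutathione transferase, was higher in HF-SC GFP (2.46, adjusted p = 0.000467) and HF-SC Tom (2.48, adjusted p = 0.000348). It did not pass in b-KC GFP (1.44, adjusted p = 0.0175) or b-KC Tom (1.38, adjusted p = 0.0196). Its change did not differ between the cell types by limma interaction terms (adjusted p = 0.303 for GFP and 0.267 for Tom). Gstm1, a transferase of the mu class, was lower in each population, with log2 fold changes of -1.10, -1.22, -1.49 and -1.76 (adjusted p = 0.000167, 5.26e-05, 2.4e-05 and 3.17e-06).

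**Figure D3:**
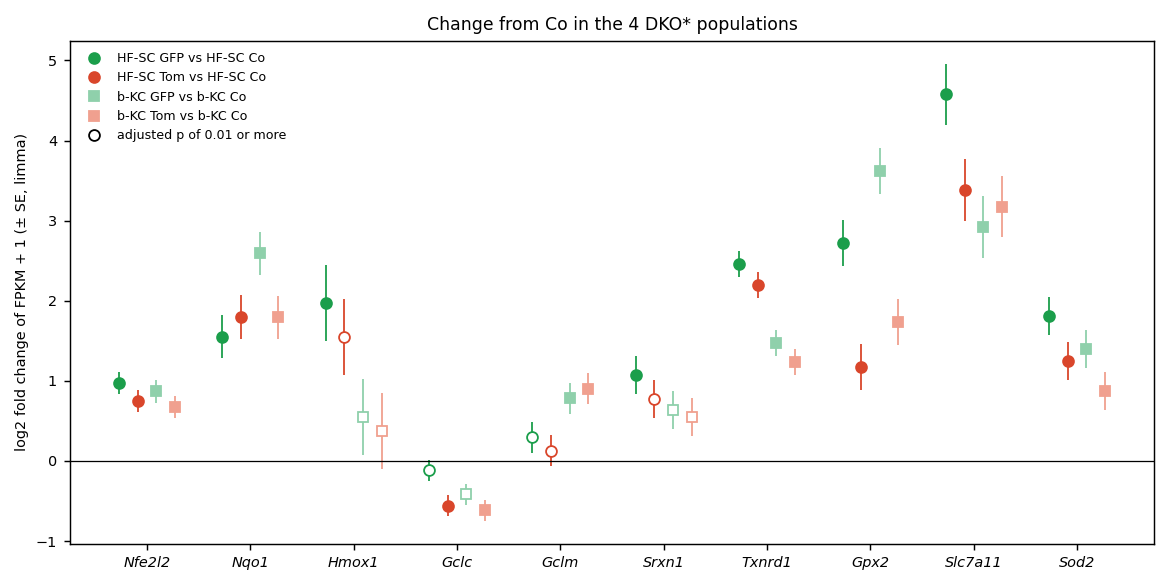
Log2 fold change of FPKM + 1 from Co for the 10 genes in the 4 DKO* populations, with bars of ± 1 SE from limma, open symbols marking an adjusted p of 0.01 or more. Slc7a11 ranges from 2.92 to 4.58 and Gpx2 from 1.17 to 3.62, Gclc has negative values in the 4 populations, of which that of HF-SC GFP was 0.0165 without mouse 828, and Hmox1, Gclc, Gclm and Srxn1 have open symbols.

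Txnrd1, the cytosolic thioredoxin reductase, gave the smallest adjusted p-values among the members in HF-SCs. It had 7.69, 8.91 and 6.38 FPKM (Co), 41.2, 47.4 and 50.5 (GFP) and 30.4, 37.4 and 49.2 (Tom) among HF-SC libraries. Its b-KC libraries held 24.5, 26.5 and 24.4 FPKM (Co), 66.1, 68.5 and 79.7 (GFP) and 57.9, 54.4 and 70.5 (Tom). The groups of libraries were separate between Co and DKO* cells and, among Co cells, between HF-SCs and b-KCs. The log2 fold change was 2.46 and 2.19 for GFP and Tom HF-SCs and 1.47 and 1.24 for GFP and Tom b-KCs, each ± 0.16 (SE, adjusted p = 5.21e-08, 7.7e-08, 1.4e-05 and 3.22e-05). In order of means, HF-SC Co, b-KC Co and HF-SC Tom were separate, HF-SC Tom overlapped HF-SC GFP, and b-KC Tom, separate from HF-SC GFP, overlapped b-KC GFP at the top.

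Srxn1, the sulfiredoxin that repairs overoxidized peroxiredoxins, had 7.73, 8.85 and 7.03 FPKM (Co), 17.8, 21.1 and 14.6 (GFP) and 12.6, 13.6 and 16.5 (Tom) among HF-SC libraries. The b-KC values were 12.3, 13.0 and 9.93 FPKM (Co), 23.8, 23.3 and 11.7 (GFP) and 19.0, 22.0 and 12.9 (Tom). In HF-SCs both fractions were above Co, whereas in b-KCs the libraries of mouse 817 lay among the Co libraries. It passed in HF-SC GFP alone (1.08 ± 0.24, adjusted p = 0.00241), and not in HF-SC Tom (0.78, adjusted p = 0.0164), b-KC GFP (0.64, adjusted p = 0.0443) or b-KC Tom (0.55, adjusted p = 0.0722). Without mouse 817 it passed in each of the 4 populations, with log2 fold changes of 0.67 for Tom HF-SCs and 0.95 and 0.76 for GFP and Tom b-KCs. The HF-SC GFP call was lost without mouse 810, 814, 815 or 828 (adjusted p up to 0.023). Among the 6 group means of Srxn1, that of HF-SC Co was lowest and stood apart from b-KC Co, and Tom and GFP HF-SCs and Tom and GFP b-KCs followed with overlap of neighbours.

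The thioredoxin list is read against the same shares of all genes, 12% to 15.7% in each direction. Of its 13 other tested genes, HF-SCs showed 2 higher and 3 lower for GFP and 2 and 3 for Tom, and b-KCs 4 and 3 for GFP and 4 and 2 for Tom. Prdx3, the mitochondrial peroxiredoxin, was higher in each population, from 10.8, 10.1 and 9.66 FPKM in b-KC Co to 89.0, 68.7 and 32.0 in b-KC GFP, with log2 fold changes of 1.42 and 1.40 in HF-SC GFP and Tom and 2.40 and 2.36 in b-KC GFP and Tom (adjusted p = 0.00134, 0.00124, 3.17e-05 and 2e-05). Prdx4, the peroxiredoxin of the endoplasmic reticulum, was higher in b-KC GFP (1.32, adjusted p = 0.00306) and b-KC Tom (1.45, adjusted p = 0.00117). The sestrins went opposite ways in HF-SC GFP, Sesn2 being higher (2.22, adjusted p = 8.88e-05) and Sesn1 lower (-1.23, adjusted p = 8.66e-05). Txnip, the inhibitor of thioredoxin, was lower in each population, with log2 fold changes of -1.18, -1.48, -1.18 and -1.66 (GFP and Tom of HF-SCs, then of b-KCs, adjusted p = 0.00339, 0.00052, 0.00386 and 0.000241).

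Gpx2, the glutathione peroxidase of epithelia, was higher in each DKO* population, with larger changes in GFP than in Tom cells. The call between GFP and Tom is given below and was lost with the mouse as a fixed block. It had 8.41, 6.52 and 4.62 FPKM (Co), 65.7, 41.1 and 39.5 (GFP) and 14.6, 14.1 and 18.4 (Tom) among HF-SC libraries. For b-KCs the levels were 3.84, 2.73 and 2.30 FPKM (Co), 59.5, 61.2 and 28.2 (GFP) and 10.2, 15.5 and 10.7 (Tom). In both cell types Co was lowest, Tom in between and GFP highest, with no overlap. The log2 fold change from Co was 2.72 ± 0.29 in HF-SC GFP and 3.62 ± 0.29 in b-KC GFP (adjusted p = 3.42e-06 and 6.53e-07). It was 1.17 ± 0.29 in HF-SC Tom and 1.73 ± 0.29 in b-KC Tom (adjusted p = 0.00399 and 0.000228). The HF-SC Tom call was lost without mouse 814, 815, 825 or 828 (adjusted p from 0.011 to 0.0308). Across groups, b-KC Tom overlapped HF-SC Tom and HF-SC GFP overlapped b-KC GFP, and the other neighbours were separate.

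Sod2, the mitochondrial superoxide dismutase, which is also known as an NF-kB target, had 12.3, 11.2 and 10.4 FPKM (Co), 49.1, 42.5 and 36.0 (GFP) and 31.6, 27.3 and 26.2 (Tom) among HF-SC libraries. Its b-KC libraries held 31.5, 26.9 and 26.7 FPKM (Co), 101, 96.1 and 45.6 (GFP) and 55.8, 63.1 and 41.7 (Tom). Each DKO* library lay above its Co libraries, and the lowest b-KC libraries of DKO* mice came from mouse 817. Log2 fold changes were 1.82 and 1.25 for GFP and Tom HF-SCs and 1.40 and 0.88 for GFP and Tom b-KCs, each ± 0.24 (SE, adjusted p = 2.63e-05, 0.00055, 0.00041 and 0.00727). The b-KC GFP call was lost without mouse 815 (adjusted p = 0.0118), and the b-KC Tom call held without mouse 817 but was lost without any of the other 5 mice (adjusted p from 0.0165 to 0.0622). HF-SC Co was separate at the bottom, b-KC Co overlapped HF-SC Tom, and from HF-SC GFP upward each group overlapped the next.

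Other enzymes that remove superoxide and peroxide, read against the same shares of all genes, were called in both directions. Of 8 tested, HF-SCs showed 0 higher and 2 lower for GFP and 2 and 2 for Tom, and b-KCs 1 and 1 for GFP and 1 and 1 for Tom. Cat, the catalase of peroxisomes, was lower in each population, with 117, 93.2 and 111 FPKM (Co), 44.7, 44.0 and 46.1 (GFP) and 32.4, 41.0 and 43.3 (Tom) among HF-SC libraries, and its libraries did not overlap Co. Its log2 fold change was -1.23, -1.44, -1.16 and -1.49 (GFP and Tom of HF-SCs, then of b-KCs, adjusted p = 1.2e-06, 1.89e-07, 5.29e-06 and 3.65e-07). Gpx1, the ubiquitous glutathione peroxidase, was higher in HF-SC Tom (1.26, adjusted p = 0.00106), b-KC GFP (1.32, adjusted p = 0.00114) and b-KC Tom (1.38, adjusted p = 0.000586) and did not pass in HF-SC GFP (0.88, adjusted p = 0.0138).

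Further lists hold other genes that Nrf2 is known to act on, and are read against the same shares. Of 7 genes of NADPH supply, HF-SCs showed 2 higher for GFP and 1 for Tom, b-KCs 0 for GFP and 1 for Tom, and none was lower. G6pdx, the first enzyme of the pentose phosphate pathway, had log2 fold changes of 1.88 for GFP and 1.73 for Tom HF-SCs and 0.85 for Tom b-KCs (adjusted p = 1.2e-05, 2.12e-05 and 0.0067). Of 9 genes of heme and iron handling, 1 was higher in each population, Tfrc, the transferrin receptor, with log2 fold changes of 2.60, 1.97, 1.07 and 1.27 (GFP and Tom of HF-SCs, then of b-KCs, adjusted p = 5.2e-07, 5.84e-06, 0.00189 and 0.000369). The iron exporter Slc40a1 was lower in HF-SC Tom (-0.99, adjusted p = 0.00492), b-KC GFP (-1.42, adjusted p = 0.000553) and b-KC Tom (-2.22, adjusted p = 8.76e-06), and the ferritin light chain gene Ftl1 was lower in HF-SC GFP (-0.98, adjusted p = 0.000298) and HF-SC Tom (-0.63, adjusted p = 0.00644).

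Of 11 detoxification enzymes, HF-SCs showed 1 higher and 2 lower for GFP and 2 and 2 for Tom, and b-KCs 1 and 0 for GFP and 2 and 4 for Tom. Akr1b8, an aldo-keto reductase, was higher in each population, with log2 fold changes of 1.04, 1.87, 1.19 and 2.34 in the same order (adjusted p = 0.00116, 5.15e-06, 0.000571 and 1.23e-06). The 2 lower in HF-SC GFP were Aldh7a1 (-0.77, adjusted p = 0.00536) and Ugdh (-0.38, adjusted p = 0.00752). Among the 4 lower in b-KC Tom were Cyp1b1 (-1.79, adjusted p = 0.000196) and Aldh1a1 (-1.64, adjusted p = 0.000136). The 3 tested metallothioneins gave 1 call in each population, Mt4 of squamous epithelium, which was lower, with 582, 403 and 468 FPKM in b-KC Co against 18.6, 31.4 and 29.8 in b-KC GFP (log2 fold change of -4.15, adjusted p = 1.46e-05).

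**Figure D4:**
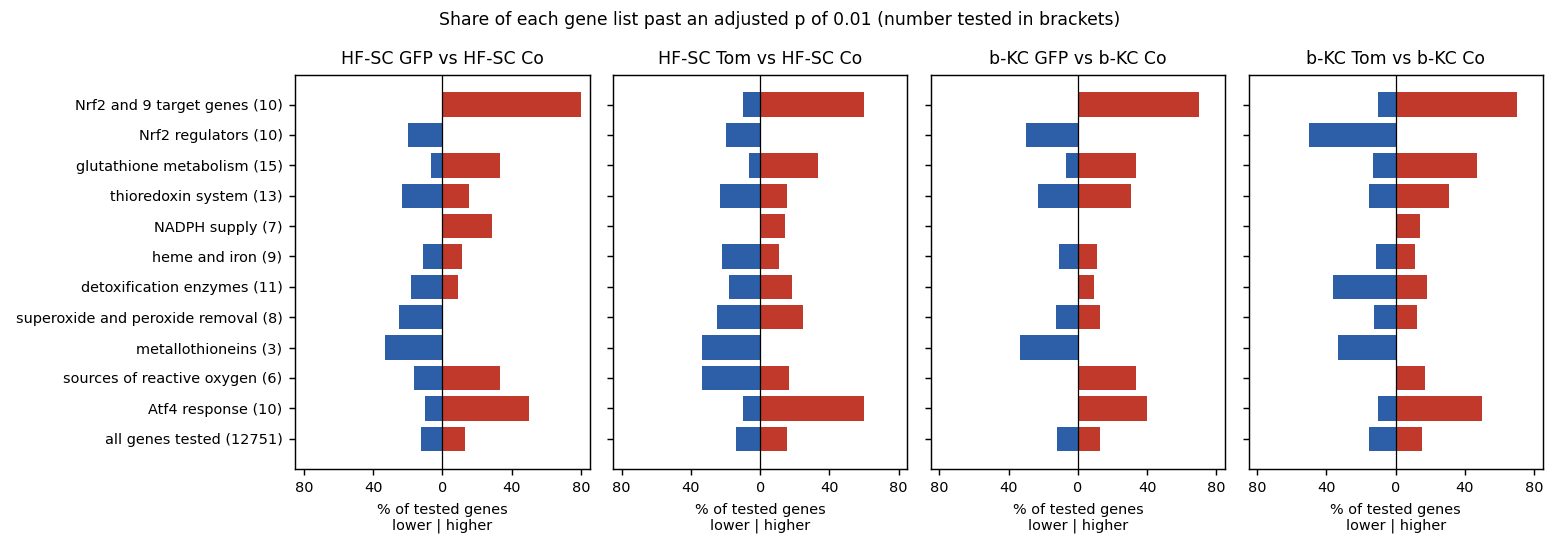
Share of each gene list that passed as higher (right, red) or lower (left, blue) against Co, in percent of the tested genes of the list, 1 panel per DKO* population. The 10 members reach 60% to 80% higher, the list of genes that regulate Nrf2 shows none higher, and the lowest bars give the share of all 12751 genes tested.

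Whether mutant cells differed from their non-mutant neighbours was asked by comparing GFP with Tom cells of the same mice. Of the 10 members, 1 passed in HF-SCs (0.902% of all genes were higher in GFP and 4.09% lower) and 1 in b-KCs (0.361% higher and 0.125% lower), and in both cases it was Gpx2. Gpx2 in GFP cells was 4.51, 2.91 and 2.15 times the Tom level in HF-SCs of mice 814, 815 and 817, and 5.83, 3.94 and 2.62 times in b-KCs. The log2 difference was 1.55 ± 0.29 in HF-SCs (adjusted p = 0.00203) and 1.88 ± 0.29 in b-KCs (adjusted p = 0.00299). With a minimum log2 difference of 2 added, 0 members passed in either cell type (1.98% of all genes in HF-SCs and 0.0863% in b-KCs). With the mouse as a fixed block over the 6 libraries compared, the call was lost in both (adjusted p = 0.0207 and 0.0186), whereas with a random block for the mouse in the fit of all 6 groups it held (adjusted p = 0.000448 and 0.000543). It was also lost without mouse 814 (adjusted p = 0.0871 and 0.104) or 815 (0.0414 and 0.0985) and, in b-KCs, without mouse 825 (0.011).

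The other members did not pass between GFP and Tom. In HF-SCs, Slc7a11 was higher in GFP than in Tom in 3 of 3 mice (2.17, 4.40 and 1.49 times) with a log2 difference of 1.19 (adjusted p = 0.0714), and Gclc was higher in 3 of 3 mice with a log2 difference of 0.44 (adjusted p = 0.0446). In b-KCs, Slc7a11 had a log2 difference of -0.26 (adjusted p = 0.951) and Nqo1 one of 0.80 (adjusted p = 0.182), higher in GFP in 3 of 3 mice. Sod2 was higher in GFP in 3 of 3 mice of both cell types, with log2 differences of 0.56 and 0.52 (adjusted p = 0.187 and 0.401). Txnrd1 was also higher in GFP in 3 of 3 mice of both cell types. So were Gclm in HF-SCs and Gclc and Nfe2l2 in b-KCs. Without mouse 817, 3 members passed in HF-SCs, where 12.6% of all genes did in the same fit, and 3 in b-KCs, where 3.2% did. These were Slc7a11 (1.51, adjusted p = 0.000309) and Sod2 (0.62, adjusted p = 0.00449) beside Gpx2 in HF-SCs, and Nqo1 (0.99, adjusted p = 0.00447) and Sod2 (0.72, adjusted p = 0.00455) beside Gpx2 in b-KCs.

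Of the 92 tested genes in the pathway lists, 1 was higher and 2 lower in GFP than in Tom HF-SCs, and 1 was higher and 1 lower in b-KCs, beside 0.902% and 4.09% of all genes in HF-SCs and 0.361% and 0.125% in b-KCs. Gsta4 was lower in GFP than in Tom, with log2 differences of -1.76 in HF-SCs (adjusted p = 0.00432, and 0.0154 with the fixed mouse block) and -2.70 in b-KCs (adjusted p = 0.00128). Ephx1, the microsomal epoxide hydrolase, was higher in GFP, with 144, 122 and 150 FPKM against 63.5, 71.3 and 67.3 in HF-SC Tom and 55.4, 54.2 and 103 against 19.9, 25.7 and 29.5 in b-KC Tom. Its log2 differences were 1.03 and 1.42 (adjusted p = 0.0053 and 0.00299, and 0.0222 and 0.0186 with the fixed mouse block). Ephx1 was not called higher in GFP cells than in Co, where its mean was 238 FPKM in HF-SCs and 62.0 in b-KCs. The log2 fold change from Co was -0.76 in HF-SC GFP and 0.13 in b-KC GFP (adjusted p = 0.0116 and 0.663). In b-KC Tom it was lower than in Co (-1.29, adjusted p = 0.000239). Gpx7, a peroxidase of the endoplasmic reticulum, was lower for GFP than for Tom in HF-SCs (-1.69, adjusted p = 0.00306, and 0.0749 with the fixed mouse block). Tom HF-SCs were the population with the high endothelial markers.

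**Figure D5:**
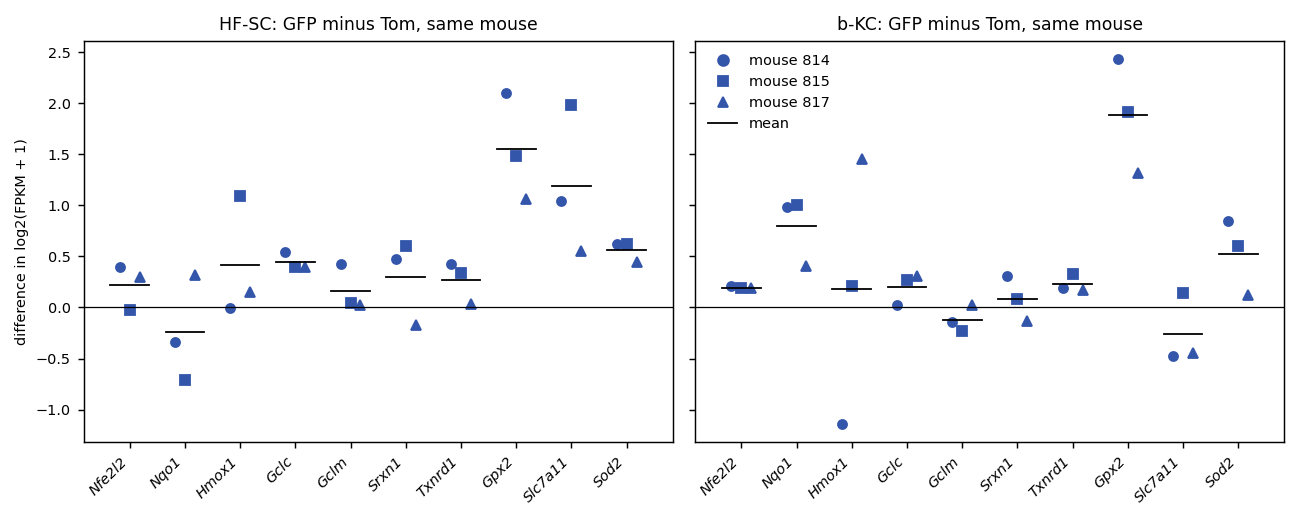
Difference in log2(FPKM + 1) between GFP and Tom cells of the same mouse for the 10 genes, with 1 point per mouse, a line at the mean of 3 mice, HF-SCs on the left and b-KCs on the right. Gpx2 is the gene whose 3 points all lie above 1 in both cell types, with means of 1.55 and 1.88.

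HF-SCs and b-KCs differed already in control skin for some members. Between HF-SC Co and b-KC Co, 1 member was higher in HF-SCs and 2 were lower, where 18.7% of all genes were higher and 19.3% lower. Gclc was higher in HF-SC Co (log2 difference of 0.63 ± 0.13, adjusted p = 0.000887), though not without mouse 825 (adjusted p = 0.0126) or 828 (0.0203). Txnrd1 was lower (-1.60 ± 0.16, adjusted p = 9.6e-07), and so was Sod2 (-1.25 ± 0.24, adjusted p = 0.000406). Nfe2l2 (-0.42, adjusted p = 0.0202), Gpx2 (0.91, adjusted p = 0.0148), Nqo1 (0.54, adjusted p = 0.104), Srxn1 (-0.52, adjusted p = 0.0818) and Slc7a11 (-0.49, adjusted p = 0.307) did not pass. With 0.1 FPKM added, Slc7a11 (-1.71, adjusted p = 0.00395) and Gpx2 (1.11, adjusted p = 0.00724) passed, as did 38.7% of all genes. With the mouse as a block, 5 members passed (random block, 47.3% of all genes) or 8 (fixed block, 52.1% of all genes), among them Nfe2l2 (adjusted p = 0.00366 and 0.00589) and Gpx2 (0.00565 and 0.000388). With a minimum log2 difference of 2 added, 0 passed, against 5.65% of all genes. Without mouse 817, which gave no Co library but enters the shared spread, 7 passed, as did 52.3% of all genes.

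The change from Co to DKO* cells was then compared between HF-SCs and b-KCs. No member passed for the GFP fractions, where 3.32% of all genes changed more upward in HF-SCs and 1.89% more downward (limma interaction terms). None passed for the Tom fractions either, where 5.93% and 2.12% did. Txnrd1 came nearest, with a rise larger in HF-SCs by 0.99 ± 0.23 on the log2 scale for GFP (adjusted p = 0.0108) and by 0.95 ± 0.23 for Tom (adjusted p = 0.0102), and it passed in both with the random mouse block (adjusted p = 0.00116 and 0.00109) and with 0.1 FPKM added (0.0087 and 0.00846). With 0.1 FPKM added, 2 members thus passed for GFP and 1 for Tom, as did 4.27% and 6.24% of all genes. For GFP the next members by p-value had differences of 1.66 for Slc7a11 (adjusted p = 0.0584, and 2.96 with adjusted p = 0.00622 when 0.1 in place of 1 FPKM was added), -1.04 for Nqo1 (adjusted p = 0.0882) and -0.90 for Gpx2 (adjusted p = 0.163). For Tom, Gclm had a difference of -0.77 (adjusted p = 0.0693). Hmox1, which passed in HF-SC GFP and not in b-KC GFP, had a difference of 1.41 ± 0.67 (adjusted p = 0.182). Without mouse 817, 3 members passed for GFP and 2 for Tom, and so did 15.8% and 15% of all genes.

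The libraries of mouse 817 differed from those of mice 814 and 815 in member genes. Within the 4 DKO* populations, mouse 817 had the lowest value of Nfe2l2, Gclm and Sod2 in 4 of 4, and of Nqo1 and Srxn1 in 3 of 4. It had the highest value of Txnrd1 in 4 of 4. The same mouse had the highest Jun value among the Tom libraries (308, 332 and 614 FPKM among HF-SCs, 163, 229 and 400 among b-KCs) and the lowest among the GFP libraries (69.6, 88.4 and 30.4 among HF-SCs, 53.9, 65.4 and 29.6 among b-KCs). The part of this in the member values was not tested.

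Over the 18 libraries, Sod2 and Txnrd1 followed Nfe2l2 most closely among the other 9 genes. Pearson's r with Nfe2l2 on the log2(FPKM + 1) scale was 0.94 for Sod2, 0.90 for Txnrd1, 0.85 for Srxn1, 0.83 for Slc7a11, 0.82 for Nqo1, 0.78 for Gclm, 0.74 for Gpx2, 0.21 for Hmox1 and -0.65 for Gclc. The libraries share mice, genotype and cell type, and these values are given as a description.

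Among 8767 genes with a mean of at least 5 FPKM, those whose pattern over the 18 libraries was most like that of Nfe2l2 were Ndufa4, a subunit of the mitochondrial respiratory chain (r = 0.97), Tdh (0.97), Pgk1, a glycolytic kinase (0.97), Psrc1 (0.96) and Serpinb6c (0.96). Mean FPKM of Ndufa4 among HF-SCs was 158 for Co, 898 for GFP and 796 for Tom, and among b-KCs 345 for Co, 2031 for GFP and 1817 for Tom. The genes most like the mean standardized level of the other 9 members were Sprr2b, a cornified envelope precursor (0.98), Uox, urate oxidase (0.98), Cxcl3, a neutrophil chemokine (0.98), Wfdc17 (0.97) and Gm5416 (0.97). Each of these 5 was under 1 FPKM on average in both Co groups and at least 20.8 FPKM in each DKO* group. They were chosen for likeness to members that were mostly higher in DKO* cells, so this split follows from the choice.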

How the data were processed

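RNA-seq libraries (SMART-Seq v4 and Nextera XT, polyA-primed, not directional) of 18 sorted samples were used. The deposited values are gene FPKM, which per the labels and the study's methods the authors made with FastQC 0.11.0, TopHat2 2.0.10 with Bowtie 1.0.0, and Cufflinks 2.2.1 on NCBI37/mm9. Whether FPKM were also scaled between libraries is not given in the sources used here. No read counts were used. Steps in low FPKM values of 7744 single-transcript genes implied 16435500 to 26270400 reads per library. As the share of low values that came within 0.1 of whole reads was only 77.3% to 81.8%, no count model was run. At these depths, 3 reads on a transcript of 1 kb are 0.114 to 0.183 FPKM, and such limits cover counting error only.

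Genes reaching 1 FPKM in 3 or more of 18 libraries were tested on log2(FPKM + 1) with limma 3.58.1 (R 4.3.3; lmFit, eBayes with trend), with 1 fit over the 6 groups and Benjamini-Hochberg adjustment over 12751 genes, and passed at an adjusted p under 0.01. The fit was tested on simulated data. Tables were made in Python 3.11.15 (numpy 2.4.6, pandas 2.3.3) and figures with matplotlib 3.10.9. The 10 members and the gene lists were chosen with earlier results of these data known. Pathway genes were named by a rule: Keap1 and Bach1 always, and in each list and comparison at most the 3 genes with the largest absolute change among those that passed without overlap of libraries; values of the same genes in the other populations were added afterwards. Genes of like pattern were the 5 with the highest Pearson's r.

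Mouse numbers in the labels mark libraries of the same animal. Deviations from group means correlated at r = 0.0838 to 0.6999 (median 0.3173) in 21 same-mouse pairs, of which 20 were above 0.1, and at a median of -0.2296 in 42 pairs of different mice. The mouse was therefore also fitted as a random block (consensus correlation 0.2742) and as a fixed block. Other alternatives were another pseudocount, threshold and filter, a fold minimum, rescaled libraries, fits of the compared groups alone, and leaving out each mouse. Windows around transcription starts are from RefSeq (GRCm38.p6), and the printed stretches were matched letter by letter to NCBIM37.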

Additional observations from a re-analysis of the deposited data

Results flagged for a closer look

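Among the 92 pathway genes tested, 7 had a change from Co to GFP that differed between HF-SCs and b-KCs by the limma interaction term (log2 change in HF-SCs minus that in b-KCs, Benjamini-Hochberg adjusted p), 4 upward and 3 downward, where 3.32% and 1.89% of all genes did. The change was more positive in HF-SCs for Gsta4 (2.71 ± 0.51 SE, adjusted p = 0.00283), Ggct, which acts in glutathione turnover (1.69 ± 0.31, adjusted p = 0.00223), Tfrc (1.53 ± 0.32, adjusted p = 0.0055) and Psat1, an enzyme of serine synthesis (1.21 ± 0.26, adjusted p = 0.00663). It was more negative in HF-SCs for Txn1, thioredoxin (-1.68 ± 0.36, adjusted p = 0.00698), Ftl1 (-1.48 ± 0.24, adjusted p = 0.000916) and Ugdh, which makes UDP-glucuronate (-0.70 ± 0.14, adjusted p = 0.00457). Mean FPKM of Txn1 in Co and GFP was 307 and 187 among HF-SCs, against 122 and 248 among b-KCs. That of Ftl1 was 1183 and 598, against 404 and 578.

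For the change from Co to Tom, 5 of the 92 genes differed between the cell types, 3 upward and 2 downward, where 5.93% and 2.12% of all genes did. These were Gpx7 (2.14 ± 0.47, adjusted p = 0.00547), Psat1 (1.19 ± 0.26, adjusted p = 0.00506), Aox1 (1.12 ± 0.25, adjusted p = 0.0065), Ugdh (-0.94 ± 0.14, adjusted p = 0.000381) and Txn1 (-1.72 ± 0.36, adjusted p = 0.00403). Gpx7 averaged 0.428 FPKM among Co and 4.40 among Tom HF-SCs, the population in which the summed endothelial markers were highest, and the part of those cells in it was not tested. Aox1 stayed at or under a mean of 1.45 FPKM in each group. The same Co libraries enter both comparisons.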

How the results depend on the processing

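Other settings were run for the member differences whose values are given in the text. Of the 35 that passed, 251 of 285 values under other settings and 170 of 210 with a mouse left out kept their direction and passed, and the rest lost the call with none reversed. Of the 32 given that did not pass, 28 and 16 values passed. The member differences not given, none of which had passed, were followed only with a mouse left out. Where counts moved, the cause was not tested, apart from settings that use fewer samples or a stricter rule.

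With a minimum change of 2 on the log2 scale, the members called against Co were 3 and 2 for GFP and Tom HF-SCs and 3 and 1 for GFP and Tom b-KCs, and 0 in the GFP against Tom and Co against Co comparisons. Each count against Co includes Slc7a11, which reached the filter through DKO* libraries alone. In fits of the compared groups alone, the Gpx2 calls for GFP against Tom were lost in both cell types. Nfe2l2, Gpx2 and Slc7a11 then also passed between HF-SC Co and b-KC Co (adjusted p = 0.00901, 0.00659 and 0.00336), and Txnrd1 for the difference of the GFP changes (0.00399). Against Co, the calls of Nfe2l2 (adjusted p = 0.0115) and Gclc (0.052) in HF-SC Tom and of Sod2 in b-KC GFP (0.0121) were lost in these fits. Without the filter on low values that of Sod2 in b-KC Tom was lost (0.0136). With the mouse as a fixed block, the Gpx2 calls for GFP against Tom were lost and 8 members passed between the Co groups (52.1% of all genes). With a random block, 5 passed between the Co groups (47.3% of all genes), and Txnrd1 passed for each difference of changes. Among members, and the pathway genes named beside a block value, the blocks changed only the calls given in the report. For other named genes, the random block lost Ugdh (adjusted p = 0.0104) and Duoxa1 (0.0128) in HF-SC GFP. At a threshold of 0.05, Gclc also passed for GFP against Tom in HF-SCs, Nfe2l2 and Gpx2 between the Co groups, and Txnrd1 for both differences of changes. With 0.1 FPKM added, 5 members passed between the Co groups (38.7% of all genes). For the differences of the GFP and Tom changes 2 and 1 passed (4.27% and 6.24% of all genes). With rescaled libraries Txnrd1 passed for that of Tom (adjusted p = 0.00945).

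With 1 mouse left out, counts ran from 6 to 8 (GFP HF-SCs, 8 with all mice), 4 to 8 (Tom HF-SCs, 7 with all), 5 to 8 (GFP b-KCs, 7 with all), 4 to 9 (Tom b-KCs, 8 with all), 0 to 3 for GFP against Tom in HF-SCs (1) and in b-KCs (1), 2 to 7 between the Co groups (3), and 0 to 3 and 0 to 2 for the differences of the GFP and Tom changes (0 and 0). Without mouse 817 each count was at the top of its range, and the share of all genes called against Co was 37.5% to 46% in the 4 populations, against 24.5% to 30.8% with all mice. It was 12.6% and 3.2% for GFP against Tom in HF-SCs and b-KCs (4.99% and 0.486% with all mice). Between the Co groups it was 52.3% (38%), and for the differences of the GFP and Tom changes 15.8% and 15% (5.21% and 8.05%). Among the differences from Co, the sign changed for Gclc in HF-SC GFP without mouse 828 (0.0165, in a range from -0.25), Hmox1 in b-KC Tom without mouse 814 (-0.13, in a range up to 0.72), Bach1 in HF-SC Tom without mouse 817 (0.0283, in a range from -0.28) and Keap1 in b-KC Tom without mouse 817 (-0.0665) or 828 (-0.0001), in a range up to 0.073, none of which had passed. For GFP against Tom in b-KCs the leave-out ranges of Hmox1 (-0.46 to 0.83) and Srxn1 (-0.02 to 0.19) held both signs. So did that of Hmox1 between the Co groups (-0.12 to 0.78). For the difference of the Tom changes the same held for Nqo1 (-0.14 to 0.17), Gclc (-0.08 to 0.22), Srxn1 (-0.09 to 0.41) and Slc7a11 (-0.48 to 0.61). None of these had passed either. Depth limits Slc7a11 and Hmox1 in Co cells, where a library held as few as 15.0 and 9.1 implied reads. With 3 mice a group, small differences such as those of Gclc and Gclm moved across the threshold with 1 mouse.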

Other observations

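Genes of the amino acid response, of which Slc7a11 is also a known member, are given beside the share of all genes that passed. Of 10 tested genes of the Atf4 list other than Slc7a11, HF-SCs showed 5 higher and 1 lower for GFP and 6 and 1 for Tom, and b-KCs 4 and 0 for GFP and 5 and 1 for Tom. In the same order, 13%, 15.7%, 12.5% and 15.4% of all genes were higher and 12.3%, 13.9%, 12% and 15.3% lower. Asns, asparagine synthetase, was higher in each population, with log2 fold changes of 1.52, 1.74, 1.00 and 1.29 for GFP and Tom of HF-SCs, then of b-KCs (limma, Benjamini-Hochberg adjusted p = 1.68e-07, 3.11e-08, 2.22e-05 and 1.26e-06). Slc7a5, an amino acid transporter subunit, averaged 8.41 FPKM among Co and 54.8 among GFP HF-SCs (log2 fold change of 2.59, adjusted p = 1.03e-05), and Trib3 rose by 1.79 (adjusted p = 0.000254). Atf4 itself did not pass, with log2 fold changes of 0.08, -0.03, 0.22 and -0.16 (adjusted p from 0.367 to 0.911). Atf3, a stress-induced relative of Atf4, was lower in HF-SC GFP (-1.61, adjusted p = 0.00414), HF-SC Tom (-1.44, adjusted p = 0.00746) and b-KC Tom (-2.04, adjusted p = 0.000662) and did not pass in b-KC GFP (-1.31, adjusted p = 0.0144). The 3 calls were lost without mouse 815 (adjusted p = 0.0492, 0.049 and 0.0108), those in HF-SCs also without mouse 810, 825 or 828 (adjusted p from 0.0121 to 0.0369), and that in HF-SC Tom without mouse 814 (0.0144) or without the filter on low values (0.015).

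Of 14 listed sources of reactive oxygen, 6 passed the filter on low values. HF-SCs showed 2 higher and 1 lower for GFP and 1 and 2 for Tom, and b-KCs 2 and 0 for GFP and 1 and 0 for Tom, where 12% to 15.7% of all genes passed in each direction. Xdh, xanthine dehydrogenase, was higher in each population, with mean FPKM of 12.4, 59.9 and 44.6 for Co, GFP and Tom HF-SCs and 36.3, 78.0 and 87.7 for Co, GFP and Tom b-KCs (log2 fold changes of 2.20, 1.78, 1.08 and 1.22, adjusted p = 5.73e-07, 3.31e-06, 0.000582 and 0.000149). Duoxa1, a maturation factor of the dual oxidases, was lower in HF-SC GFP (-1.12, adjusted p = 0.00681, and 0.0128 with the random mouse block) and HF-SC Tom (-1.40, adjusted p = 0.00127). The first call was also lost without the filter on low values (0.013) and without any of the mice other than 817 (0.0181 to 0.0418), and the second without mouse 814 (0.0129), 815 (0.011) or 828 (0.0115). Duox1, a dual oxidase, was lower in HF-SC Tom (-1.52, adjusted p = 0.00205), though not in a fit of the compared groups alone (0.0361) or without mouse 814 (0.0217), 815 (0.0342) or 825 (0.0151). Duoxa2, the other maturation factor, had 0.0919 to 0.129 FPKM in HF-SC Co and 1.43 to 3.09 in HF-SC GFP. It reached the filter on low values through DKO* libraries alone, and its call in HF-SC GFP, 1 of the 2 counted as higher there, is therefore given as a description. Cyba, the p22phox subunit of NADPH oxidases, had 0.175 to 0.511 FPKM in b-KC Co and 0.929 to 6.31 in b-KC GFP, where it was higher (1.67, adjusted p = 0.0036). That call was lost without any mouse but 817 (0.0109 to 0.044) and in a fit of the compared groups alone (0.0261).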
